A study of Mus musculus with 8 samples.

Results

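The genes described here are 9 transcription factor genes of the epidermis, namely Trp63, Tfap2a, Klf4, Klf5, Ovol1, Zfp750, Grhl1, Grhl2 and Grhl3. They were chosen by name, and all 9 are among the 41457 genes of the deposited tables. Their RNA was measured by poly(A) RNA-seq in keratinocytes (KCs), the epithelial cells of the epidermis, in 4 samples taken after 1 week of culture and 4 taken after 3 weeks. All 8 samples were untreated Wildtype KCs of the strain C57BL/6 (substrain C57BL/6J in the paper), prepared from the tail skin of adult mice, which were 8 to 12 weeks old where nothing else is stated. Both groups were grown without serum in SFM KC medium with 0.06 mM Ca++ and were split when nearly confluent. Calcium at this low level is used to keep KCs from differentiating. The paper describes the time points as drawn from shared batches of KCs, and 3 of the preparation numbers in the names of the deposited tables occur at both times. Number 46 is replicate 1 and number 90 is replicate 4 at both times, and number 49 is 1-week replicate 3 and 3-week replicate 2. The fit used here did not pair samples. The labels do not say whether the 4 samples of a time point came from separate mice, and p-values therefore measure the spread between these samples.

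The transcription factor p63, encoded by Trp63, specifies stratified epithelia and keeps basal KCs in the cell cycle. Basal KCs use mainly its short ΔN form, which starts from an internal promoter, while the long TA form carries an additional activation domain. When KCs leave the basal layer, p63 works together with factors that it helps to switch on: the zinc finger proteins ZFP750, KLF4 and OVOL1 promote the late program, OVOL1 by repression, and the grainyhead-like factors GRHL1 to GRHL3 act on genes of cell junctions and of the barrier. KLF5 and the AP-2α protein encoded by Tfap2a act in basal and in differentiating layers.

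Of the 9 genes only Ovol1 differed between the time points with an adjusted p-value under 0.05, and it was lower after 3 weeks, by 5.02-fold. This is 1 of 9 genes, beside 32.8% of all 12590 genes tested (17.0% lower and 15.7% higher). In an edgeR fit of the 3 shared preparations alone, with the preparation as a block, Ovol1 was again the only member that passed (log2 fold change -2.24, adjusted p = 0.00684). In that fit 1793 instead of 2146 of all genes were lower and 1316 instead of 1981 higher. All 9 genes had enough reads for the test. None passed the test in the higher direction by edgeR, DESeq2 or limma. At an unadjusted p under 0.05 in edgeR, 3 were lower (Ovol1, Trp63 and Klf4) and 0 higher. Of all 12590 tested genes, 2772 were lower and 2732 higher at that cutoff. The fitted log2 fold changes, 3 weeks over 1 week, ranged from -2.33 for Ovol1 to 0.59 for Zfp750, with a median of -0.29 beside 0.03 for all tested genes. They were computed from reads on exons with edgeR, after TMM scaling for library composition, and p-values of its quasi-likelihood test were adjusted by the Benjamini-Hochberg method over all tested genes. RPKM values, which express the exon reads per length of the gene and per depth of the library, carry no such scaling, and on the log2(RPKM + 0.1) scale the median change of all genes was -0.16.

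The reads on exons numbered from 13896807 to 20026084 per sample at 1 week and from 14096649 to 18127283 at 3 weeks. Keratin 14 RNA (Krt14) had a mean of 6941 RPKM at 1 week and 5283 at 3 weeks, and all 9 listed KC markers were detected. The summed RPKM of these markers was between 13746.7 and 16100.5 at 1 week. At 3 weeks it was lower without overlap, between 8822.81 and 10552.6. In edgeR 1 of these markers passed as higher, Epcam (log2 fold change 0.74, adjusted p = 0.00591). Krt5 (-1.32) and Itga6 (-0.75) passed as lower, and the other markers did not pass. Among the libraries of 3 weeks, replicates 3 and 4 stood apart in opposite directions. After scaling, the 3148 genes with the longest exon sequence (6726 bases or more) had a median deviation from the mean of their time point of -0.24 (log2) in replicate 3 and of 0.18 in replicate 4, and the 3148 genes with the shortest (2710 bases or less) of 0.25 and -0.19. The exon lengths of the 9 genes lie between 2789 and 8613 bases. The values of the members are therefore given per sample, and the fit of exon reads was repeated without both of these libraries and with an offset for exon length.

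**Figure D1:**
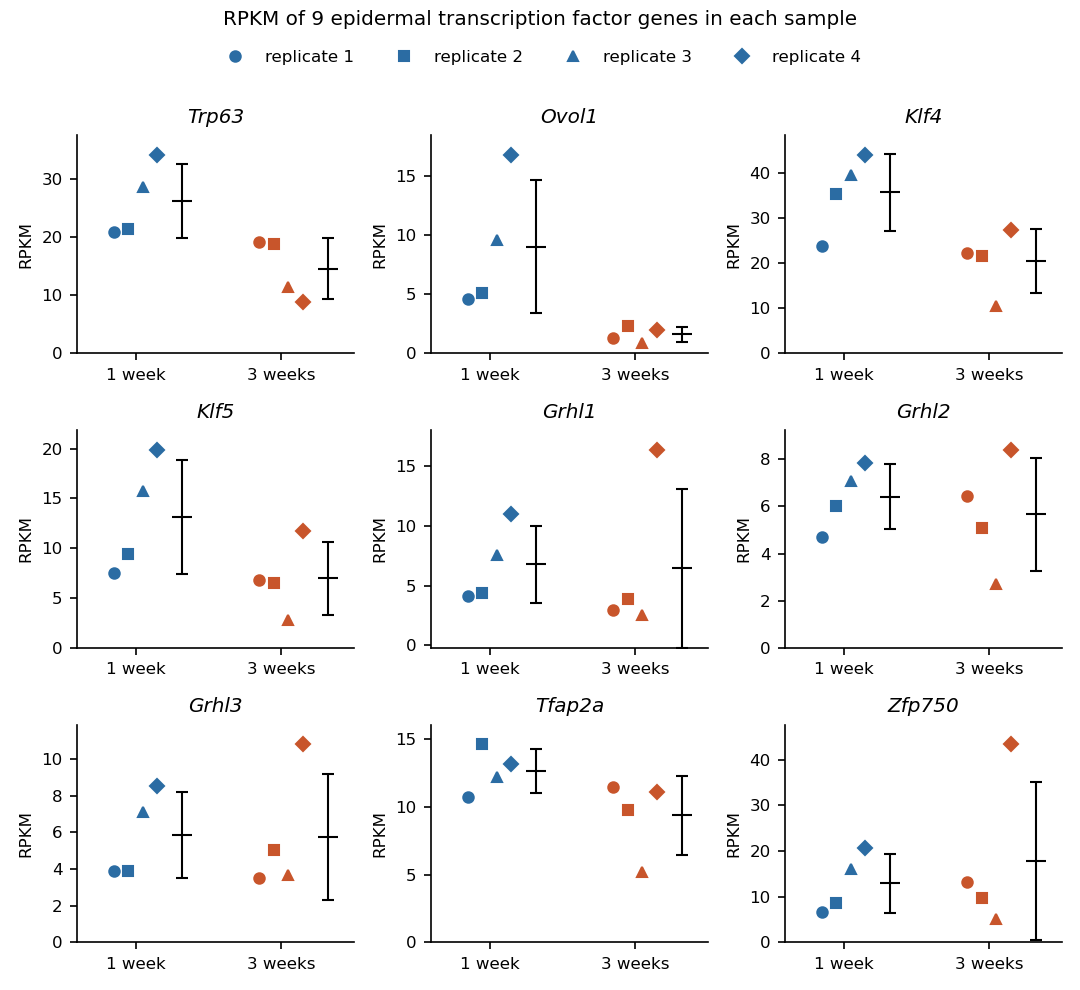
RPKM (vertical axes, each from 0 or just below) of the 9 genes in the 4 samples of 1 week (blue) and the 4 of 3 weeks (orange), with 1 symbol per replicate number and the mean ± SD in black. The values of the time points lie apart for Trp63 and Ovol1, and in 3-week replicate 4 Grhl1 reached 16.4 RPKM and Zfp750 43.4.

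Trp63 (ENSMUSG00000022510) lies on chromosome 16, from 25683763 to 25892102 on the plus strand of GRCm38. It stood at 20.8, 21.3, 28.6 and 34.1 RPKM in replicates 1 to 4 of 1 week and at 19.1, 18.9, 11.5 and 8.79 RPKM in those of 3 weeks. The groups did not overlap, but the highest sample of 3 weeks was within 2 RPKM of the lowest of 1 week, and the low values were those of replicates 3 and 4. The mean was 26.2 ± 6.34 RPKM at 1 week and 14.6 ± 5.24 at 3 weeks (SD, n = 4 each). The log2 fold change was -0.69 (SE 0.27, 95% interval -1.30 to -0.08), with an adjusted p of 0.0809 in edgeR's quasi-likelihood test, above the threshold. On RPKM values, without TMM scaling, limma gave -0.89 with an adjusted p of 0.0360, which passed it, whereas edgeR gave -0.34 and 0.245 without 3-week replicates 3 and 4. The GENCODE M21 annotation lists 8 Trp63 transcripts, of which 4 start at 25683763 or a few bases further, where the TA forms begin, and 4 start at 25801916, 118 kb downstream, where the ΔN forms begin. The deposited tables count reads per gene, so the forms cannot be told apart in them.

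Tfap2a (ENSMUSG00000021359, chromosome 13, 40715302 to 40738376, minus strand), which encodes AP-2α, was the steadiest of the 9 genes at 1 week, with 10.7, 14.6, 12.2 and 13.1 RPKM. At 3 weeks it stood at 11.4, 9.74, 5.17 and 11.1 RPKM. Replicate 3 of 3 weeks was the low one, replicate 2 was also below every sample of 1 week, and replicates 1 and 4 lay within the range of 1 week. Its fitted change of -0.29 (log2, SE 0.21, 95% interval -0.75 to 0.18) had an adjusted p of 0.316. Of its exon reads 72.2% were counted as unique. It overlaps 3 antisense genes (Gm47061, Gm26688 and Gm47067), which held between 0 and 9 exon reads per sample, and if reads were counted without regard to strand, which no source used here states, those of overlapping genes cannot be told apart.

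Klf4 (ENSMUSG00000003032, chromosome 4, 55527143 to 55532466, minus strand), a factor of the late program and of the barrier, had the highest mean RPKM of the 9 genes at both times. Its values were 23.9, 35.4, 39.6 and 43.9 RPKM at 1 week and 22.3, 21.5, 10.5 and 27.3 RPKM at 3 weeks. They overlapped through 1 sample, the highest of 3 weeks (replicate 4), which lay above the lowest of 1 week (replicate 1). The mean was 35.7 ± 8.63 RPKM at 1 week and 20.4 ± 7.09 at 3 weeks (SD, n = 4 each), and the log2 fold change of -0.66 (SE 0.26, 95% interval -1.25 to -0.08) had an adjusted p of 0.0801 in edgeR. Without 3-week replicate 4 it was -0.81 with an adjusted p of 0.0432, past the threshold. In the other 20 alternative fits Klf4 did not pass, for example with -0.41 and 0.434 in edgeR without 1-week replicates 3 and 4.

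Klf5 (ENSMUSG00000005148, chromosome 14, 99298691 to 99315036, plus strand), a Krüppel-like factor of proliferating epithelium, was lower per length than Klf4 in every sample. It stood at 7.54, 9.42, 15.7 and 19.9 RPKM at 1 week and at 6.79, 6.55, 2.81 and 11.7 RPKM at 3 weeks. At both times replicate 4, of preparation number 90, was the highest. In edgeR the fitted log2 fold change of Klf5 was -0.78 (SE 0.41, 95% interval -1.70 to 0.14), with an adjusted p of 0.173. The ratio of Klf4 to Klf5 RPKM was between 2.21 and 3.76 at 1 week and between 2.32 and 3.73 at 3 weeks, and its mean log2 value differed by 0.13 (two-sided exact permutation test over 70 arrangements, p = 0.629, 0.80 after adjustment over the 4 ratios that were tested).

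Ovol1 (ENSMUSG00000024922) lies on chromosome 19, from 5549137 to 5560575 on the minus strand. It encodes a zinc finger repressor that is known to restrain proliferation when progenitor KCs begin to differentiate. At 1 week its RNA stood at 4.60, 5.09, 9.56 and 16.7 RPKM, from 254, 304, 398 and 855 exon reads. At 3 weeks it stood at 1.33, 2.29, 0.903 and 1.95 RPKM, from 72, 109, 43 and 83 reads. Every sample of 3 weeks was below every sample of 1 week, and the spread was wide at 1 week, where the highest sample was 3.63 times the lowest.

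Ovol1 thus fell from a mean of 8.99 ± 5.61 RPKM to 1.62 ± 0.619 RPKM (SD, n = 4 each). The log2 fold change was -2.33 (SE 0.45, 95% interval -3.34 to -1.31), a 5.02-fold fall (2.48 to 10.2), with an adjusted p of 0.00472 in edgeR's quasi-likelihood test. It passed the threshold in each of the alternative fits, with log2 fold changes from -2.56 to -1.46 and adjusted p-values from 2.1e-06 to 0.0282. The smallest fall was the one without 1-week replicates 3 and 4, in which Ovol1 was highest. All Ovol1 exon reads were counted as unique. In the order of the 9 genes by mean RPKM it went from place 6 at 1 week to place 9 at 3 weeks, and among all 41457 genes from place 4629 to place 9097. Among the tested genes, the RPKM values of 26.2% lay wholly lower at 3 weeks and those of 10.8% wholly higher; of the 9 members, Ovol1 and Trp63 lay wholly lower and none wholly higher. Ovol2, the only other Ovol gene listed for comparison, had 2.22 RPKM at 1 week and 1.98 at 3 weeks on average and did not pass (adjusted p = 0.997).

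**Figure D2:**
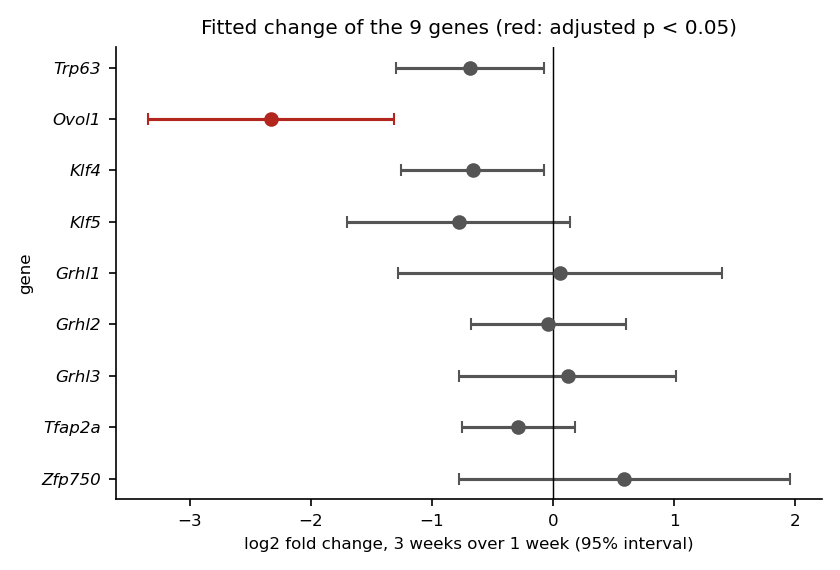
Log2 fold change, 3 weeks over 1 week, of the 9 genes (points) with 95% intervals (bars) from edgeR, in red where the adjusted p is under 0.05. Ovol1 is the only red point, at -2.33, and the interval of Zfp750, from -0.78 to 1.95, is the widest.

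Zfp750 (ENSMUSG00000039238, chromosome 11, 121510978 to 121519333, minus strand) encodes a zinc finger protein that is induced by p63 and acts with KLF4 in terminal differentiation. It stood at 6.70, 8.55, 16.1 and 20.6 RPKM at 1 week and at 13.3, 9.71, 5.12 and 43.4 RPKM at 3 weeks. The highest and the lowest of the 8 values both came from 3 weeks, in replicates 4 and 3, 8.46-fold apart. The log2 fold change of 0.59 (SE 0.60, 95% interval -0.78 to 1.95) had an adjusted p of 0.491, and without 3-week replicate 4 it was -0.30, so that neither direction is shown. The ratio of Zfp750 to Trp63 RPKM was between 0.322 and 0.604 at 1 week and at 0.694, 0.514, 0.445 and 4.93 in replicates 1 to 4 of 3 weeks. The mean log2 ratio was higher by 1.04 at 3 weeks (two-sided exact permutation test, p = 0.229, adjusted p = 0.80), and replicate 4 carried most of this difference, since without it the difference was 0.24.

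The counts of Zfp750 have a particular limit. Only 2.63% of its exon reads (172 of 6546 over all samples) were counted as unique, between 0.971% and 3.76% per sample, whereas all exon reads of Trp63, Klf5, Grhl1, Grhl3 and Ovol1 were. The gene lies inside Tbcd, a tubulin cofactor gene on the opposite strand (121451949 to 121617164), although no Tbcd exon of GENCODE M21 overlaps any of its 3 exons. In 8 of 8 samples the number of unique exon reads equalled the number of unique reads that span a Zfp750 splice junction. The junction that joins its coding exons, exon 2 and exon 3, is shown as an example of such a sequence. The tables do not say how many of these reads lie on it and how many on the junction of exons 1 and 2. It removes an intron of 127 bases and is written on the minus strand of GRCm38, 20 bases on each side, with the bases of exon 3 in capitals (chromosome 11, 121512627 to 121512646 for exon 2 and 121512480 to 121512499 for exon 3):
Zfp750 exon 2 to exon 3: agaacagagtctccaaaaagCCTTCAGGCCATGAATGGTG
The unique exon reads alone numbered 4, 12, 28 and 34 at 1 week and 16, 11, 10 and 57 at 3 weeks. They have the same order of samples within 1 week as the RPKM values, and replicate 4 is again the highest of 3 weeks. Tested on their own in edgeR they gave a log2 fold change of 0.49 with an adjusted p of 0.668.

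The grainyhead-like genes, whose products bind the same DNA motif in epithelial genes, had the lowest mean RPKM of the 9 at 1 week. Grhl1 (ENSMUSG00000020656, chromosome 12, 24572283 to 24617391, plus strand), which acts on desmosomal cadherin genes, stood at 4.11, 4.42, 7.53 and 11.0 RPKM at 1 week. At 3 weeks it stood at 2.99, 3.87, 2.56 and 16.4 RPKM. Replicate 4 of 3 weeks was the highest of all 8 samples, and the other samples of 3 weeks were below every sample of 1 week. Grhl1 had a log2 fold change of 0.06 (SE 0.59, 95% interval -1.28 to 1.40; adjusted p = 0.952) with TMM scaling, -0.40 on the log2(RPKM + 0.1) scale, and -0.93 without 3-week replicate 4 (adjusted p = 0.0680).

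Grhl2 (ENSMUSG00000022286, chromosome 15, 37233036 to 37363569, plus strand) is needed for epithelial junctions. It stood at 4.71, 6.0, 7.08 and 7.85 RPKM at 1 week and at 6.44, 5.08, 2.71 and 8.39 RPKM at 3 weeks, so that the groups overlapped almost fully. Grhl2 overlaps the antisense gene Gm16136, which held between 91 and 308 exon reads per sample beside 383 to 1193 on Grhl2. The genes share only the stretch from 37233036 to 37233309, for which the limit on strand given for Tfap2a holds as well. Of the exon reads, 1107 of 1137 on Gm16136 and 96.8% of those on Grhl2 were counted as unique. The log2 fold change of Grhl2 was -0.04 (SE 0.28, 95% interval -0.68 to 0.60, adjusted p = 0.930), and its sign differed among the alternative fits, for example 0.15 without 3-week replicate 3.

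Grhl3 (ENSMUSG00000037188, chromosome 4, 135541888 to 135573630, minus strand) is known for its part in barrier formation, where it acts on the transglutaminase gene Tgm1. It stood at 3.92, 3.88, 7.12 and 8.52 RPKM at 1 week and at 3.54, 5.04, 3.67 and 10.8 RPKM at 3 weeks. As for Grhl1, replicate 4 was the highest at both times. For Grhl3 the log2 fold change was 0.12 with TMM scaling (SE 0.40, 95% interval -0.77 to 1.01; adjusted p = 0.844) and -0.09 on the log2(RPKM + 0.1) scale. Within the family, the ratio of Grhl1 to Grhl2 was between 0.737 and 1.40 at 1 week and between 0.465 and 1.95 at 3 weeks. That of Grhl3 to Grhl2 was between 0.647 and 1.08 and between 0.550 and 1.35. The mean log2 ratios differed by -0.14 and 0.17 (two-sided exact permutation tests, p = 0.80 and 0.60, both 0.80 after adjustment over 4 ratios; the smallest p this design allows is 0.0286).

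By mean RPKM the order at 1 week was Klf4, Trp63, Klf5, Zfp750, Tfap2a, Ovol1, Grhl1, Grhl2 and Grhl3. The values of neighbours in this order overlapped, except that all Trp63 values were above all Klf5 values. At 3 weeks the order was Klf4, Zfp750, Trp63, Tfap2a, Klf5, Grhl1, Grhl3, Grhl2 and Ovol1. Here neighbours overlapped except that every Grhl2 value was above every Ovol1 value.

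**Figure D3:**
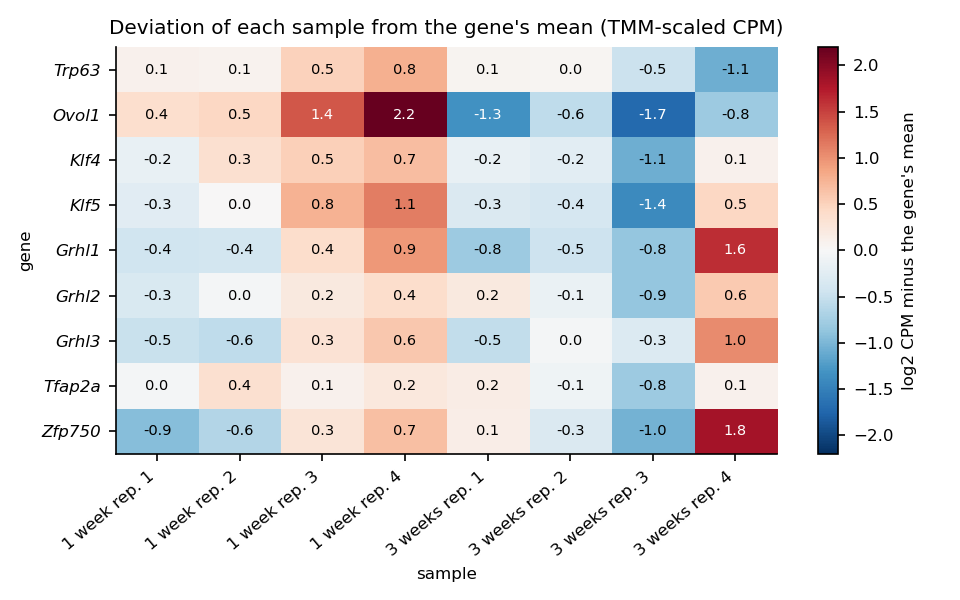
Log2 TMM-scaled CPM (reads per gene at equal depth) of each of the 9 genes (rows) in each of the 8 samples (columns), minus the gene's mean over all samples, as colour and number. The column of 1-week replicate 4 is positive for all 9 genes and that of 3-week replicate 3 negative for all 9, and in 3-week replicate 4 Trp63 (-1.1) and Zfp750 (1.8) deviate in opposite directions.

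The members varied together by sample within a time point. In RPKM, 1-week replicate 4 was the highest of 1 week for 8 of the 9 genes (all but Tfap2a) and 1-week replicate 1 the lowest for 8 of the 9 (all but Grhl3), whereas these libraries held the highest value in 26.2% and the lowest in 30.0% of the tested genes. At 3 weeks replicate 3 was the lowest for 7 genes, beside 41.0% of the tested genes, and replicate 4 the highest for 6, beside 38.3%. Trp63 stood out in the latter library: replicate 4 held its lowest value of 3 weeks, while Klf4, Klf5, Grhl1, Grhl2, Grhl3 and Zfp750 had their highest there.

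The genes whose pattern over the 8 samples was most like that of a member were found by the root mean square (RMS) difference of log2(CPM + 1), with each gene centred on its mean, among 8596 tested genes with at least 10 CPM on average. For Trp63 they were Lss (lanosterol synthase), Fads2 (a fatty acid desaturase) and Bmp7 (a bone morphogenetic protein), at 0.12, 0.13 and 0.14. For Ovol1 they were Pcdh7, Gja1 (connexin 43) and Chaf1a, at 0.33, 0.34 and 0.34, so that its pattern had no match as close as those of the others. Those of Klf4 were Baz1a, Frmd4b and Bms1 (0.10 to 0.11), those of Klf5 Kif26a, Bcor and Bcl11b (0.16 to 0.19), and those of Tfap2a Maml1, Ehmt1 and Ttc37 (0.06 to 0.09). Grhl1 was nearest to Epn3, Rnf39 and Ablim1 (0.22 to 0.27), Grhl2 to Dhx38, Med13 and Ankhd1 (0.07 to 0.08), and Grhl3 to Plet1, Tmprss13 and Pof1b (0.13 to 0.20). Zfp750 was nearest to Rab11fip1 and Eps8l1, at 0.25 each. These distances describe 8 samples and were not tested.

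Reads on introns, which come largely from unspliced RNA, were few. Only 4 of the 9 genes had enough for a test, and 0 of them passed, beside 8.76% of the 4016 genes tested. At an unadjusted p under 0.05 it would be 2, Trp63 and Grhl2. The share of all genes under that cutoff was not counted for intronic reads, so this count does not set the members apart from other genes. Trp63 had from 66 to 144 intronic reads per sample at 1 week and from 28 to 104 at 3 weeks (log2 fold change -0.78, SE 0.36, adjusted p = 0.189). Grhl2 had 25, 33, 20 and 32 at 1 week and 52, 42, 67 and 94 at 3 weeks. In these counts, which are not scaled for depth, its lowest value of 3 weeks was above its highest of 1 week, unlike its exon reads. How many of all genes lay apart in this way was not counted for intronic reads. The log2 fold change of its intronic reads was 0.91 (SE 0.28, 95% interval 0.31 to 1.52), with an adjusted p of 0.0582 when scaled to the intronic reads. It was 1.53 with an adjusted p of 0.00871 when scaled like the exon reads, under which the median of all genes rose to 0.60. For Grhl1 and Tfap2a the intronic changes were -0.62 and -0.42 (adjusted p = 0.475 and 0.391). Ovol1 had only 2 to 18 intronic reads per sample at 1 week and 0 to 11 at 3 weeks, under the filter.

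Of 19 relatives in the p53, KLF, Ovol, AP-2 and CP2/grainyhead families, 16 were tested, with a median log2 fold change of -0.16. None rose in edgeR, DESeq2 or limma (0 also at an unadjusted p under 0.05, beside 2732 of all 12590 tested genes). In edgeR 3 fell, beside 17.0% lower and 15.7% higher of all tested genes. All 3 were AP-2 genes. Tfap2b fell from 1.57 ± 0.144 to 0.749 ± 0.219 RPKM (log2 fold change -0.91, adjusted p = 0.00805), and Tfap2c, which encodes AP-2γ, from 6.70 ± 0.545 to 4.62 ± 0.387 RPKM (-0.38, adjusted p = 0.0370; SD, n = 4 each). The call of Tfap2c was lost in 11 of 21 alternative fits, the preparation block among them. Tfap2e had 96 exon reads over the samples of 1 week and 2 over those of 3 weeks, where 3 of the 4 libraries were at 0, a ratio of 0.0226 at equal depth (exact 95% interval 0.00269 to 0.0838, counting error only). The most abundant relatives that did not pass were Klf6, an early response factor, with 145 ± 32.0 RPKM at 1 week and 121 ± 28.1 at 3 weeks, and Trp53, with 38.0 ± 1.52 and 27.8 ± 4.87 RPKM (log2 fold change -0.29, adjusted p = 0.137).

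Of 34 other transcription factors known in epidermis, 31 were tested, 2 rose and 3 fell (median -0.23), beside 15.7% higher and 17.0% lower of all tested genes. Sox11, an embryonic SOX factor, rose from 1.20 ± 0.611 to 4.70 ± 0.734 RPKM (log2 fold change 2.14, adjusted p = 0.00158), and Msx2 rose (0.67), a call that was lost in 11 of 21 alternative fits, the preparation block among them. Pou3f1, a POU factor of suprabasal cells, fell from a low level, from 0.705 ± 0.225 to 0.122 ± 0.0723 RPKM (log2 fold change -2.37, adjusted p = 0.00292). Gata3, a factor of the barrier (-1.08, adjusted p = 0.0219), fell, and so did Myc, a factor of proliferating KCs, from 54.3 ± 6.39 to 23.8 ± 9.99 RPKM (-1.05, adjusted p = 0.0129). Hopx had 33.5 ± 22.4 and 71.7 ± 95.3 RPKM (adjusted p = 0.295), with 214 RPKM in 3-week replicate 4, the library in which Grhl1 and Zfp750 were highest.

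Of 27 known p63 targets and basal genes, 26 were tested, 2 rose and 5 fell, with a median of 0.09, close to that of all genes. Beside them, 15.7% of all tested genes were higher and 17.0% lower. Krt5, the basal partner of keratin 14, fell from 6170 ± 156 to 2207 ± 270 RPKM (log2 fold change -1.32, adjusted p = 0.00103). Jag2, a Notch ligand (-1.74, adjusted p = 0.000431), the receptor gene Fgfr3 (-1.24, adjusted p = 0.0225), Itga6 (-0.75) and Bmp7 (-0.70) fell too, but Fgfr3, Itga6 and Bmp7 did not pass with the preparation block (adjusted p = 0.0985, 0.09998 and 0.0890). Fgfr3 was low, with means of 0.555 RPKM at 1 week and 0.209 at 3 weeks. Itgb1, the β1 integrin gene, rose by 0.79 (adjusted p = 0.00698) and so did Jag1, another Notch ligand (0.82), whose call was lost in 11 of 21 alternative fits. Krt14 (-0.23, adjusted p = 0.414) and Sfn, which encodes 14-3-3σ (-0.15, adjusted p = 0.753), did not pass. Without 1-week replicates 3 and 4 none of the list rose and 2 fell.

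Of 26 genes of terminal differentiation, 22 were tested, 1 rose and 7 fell, with a median of -1.01. Beside them, 15.7% of all tested genes were higher and 17.0% lower. Klk7, a protease in the shedding of corneocytes (log2 fold change -5.37, adjusted p = 0.00613), and Krtdap (-4.68, adjusted p = 0.00917) fell. From low levels, the desmosomal cadherin gene Dsg1a fell from 1.43 ± 1.39 to 0.125 ± 0.0410 RPKM (-3.35) and Krt1 from 0.907 ± 0.636 to 0.146 ± 0.0531 RPKM (-2.44). Dsg1b, Asprv1 and Abca12 fell as well, of which Dsg1b lost its call in 11 of 21 alternative fits. Casp14, a caspase of cornifying cells, rose by 1.76. Dmkn and Sbsn, the most abundant that did not pass, had adjusted p-values of 0.199 and 0.247. With the preparation block 15 genes of the list fell, among them Dmkn and Sbsn (adjusted p = 0.0260 and 0.0140). Only 7.30% of the exon reads of Sbsn were counted as unique. The list's summed RPKM was between 183 and 271 in 1-week replicates 1 and 2, at 870 and 1166 in replicates 3 and 4, and between 123 and 446 at 3 weeks. For all members but Tfap2a, these 2 libraries also held the 2 highest values of 1 week. Without them 2 genes of the list fell, Dmkn and Sbsn had log2 fold changes of 0.22 instead of -0.93 and -0.85, and Ovol1 still fell, with -1.46 and an adjusted p of 0.0282.

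Of 20 cofactors and regulators of p63, KLF and GRHL proteins, 19 were in the tables under these names and tested. Mdm2, which encodes a ubiquitin ligase of the p53 family, rose from 24.3 ± 5.10 to 47.2 ± 2.58 RPKM (log2 fold change 1.13, adjusted p = 0.00170). No other gene of the list passed (median -0.01), beside 15.7% higher and 17.0% lower of all tested genes. At an unadjusted p under 0.05 in edgeR 4 of the 19 were higher, Mdm2 among them, beside 2732 of all 12590 tested genes. Hdac1 (0.37, adjusted p = 0.0599) and the p63 inhibitor gene Ppp1r13l, which encodes iASPP (-0.03, adjusted p = 0.946), were the most abundant that did not pass. All of these lists were chosen with results of these data known, and no list was tested against other genes.

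**Figure D4:**
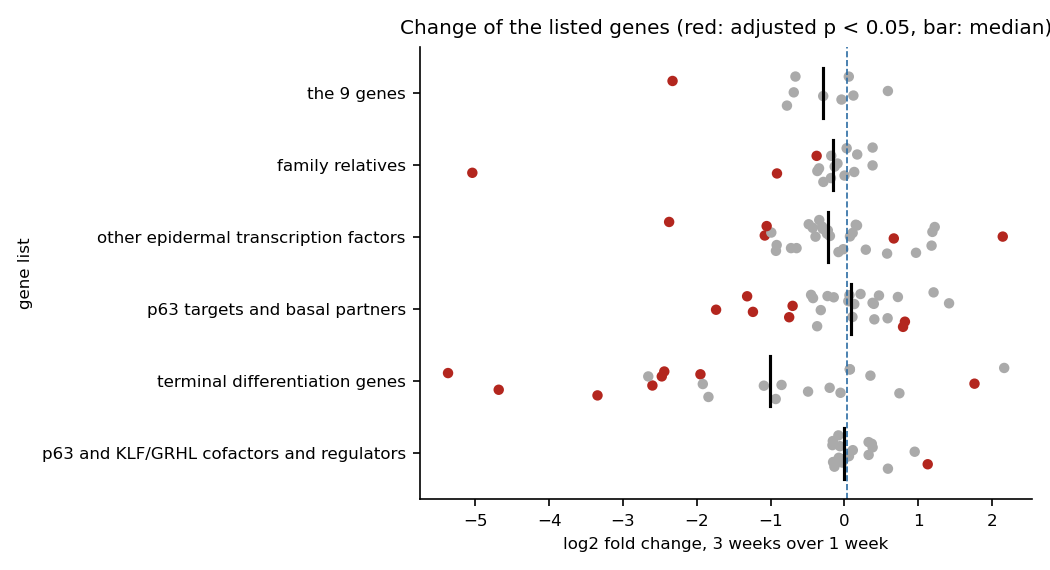
Log2 fold change, 3 weeks over 1 week, of the tested genes of each list (points, red where the adjusted p is under 0.05), with the median of the list as a black bar and that of all tested genes, 0.03, as a dashed line. The genes of terminal differentiation have the lowest median, at -1.01, and the 9 genes a median of -0.29.

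Markers of other cells of the skin were low but not absent. The summed RPKM of 6 melanocyte markers (Dct, Tyr, Tyrp1, Pmel, Mlana and Sox10) was between 3.25 and 21.0 at 1 week, with 15.5 and 21.0 in replicates 3 and 4, and between 1.28 and 5.599 at 3 weeks. Of the 4 that were tested, 1 fell (Pmel, log2 fold change -2.06). For the 7 fibroblast markers the sums were between 3.16 and 5.15 and between 2.43 and 4.84, and Pdgfrb fell, while the other 6 did not pass. For the 6 leukocyte markers they were between 14.8 and 20.04 and between 6.75 and 13.4, most of it Cd68, which fell (log2 fold change -0.89). Cd74 had means of 0.932 RPKM at 1 week and 0.884 at 3 weeks and did not pass. Ptprc (0.0204 and 0.0189), Cd3e (0.00297 and 0.00373) and Itgam (0.0355 and 0.0823) were not tested, and Cd207 was at 0 in all samples. The 4 endothelial markers summed to 0.559 RPKM at most. The 4 Merkel cell markers summed to between 0.0417 and 0.149 RPKM at 1 week and between 0.311 and 0.640 at 3 weeks. Among them Krt20, which was not tested, had means of 0.0159 and 0.424 RPKM without overlap of the groups. Piezo2 had means of 0.0550 and 0.0503 RPKM, and Atoh1 and Isl1 were at 0 in all samples of 3 weeks. Of the 3 endothelial and Merkel cell markers that were tested none passed, also without adjustment. The melanocyte markers were thus highest in the same 1-week libraries as Ovol1 and most of the other members, and their part in these values was not tested. In bulk RNA, fewer cells that express a gene and less RNA of it per cell cannot be told apart.

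**Figure D5:**
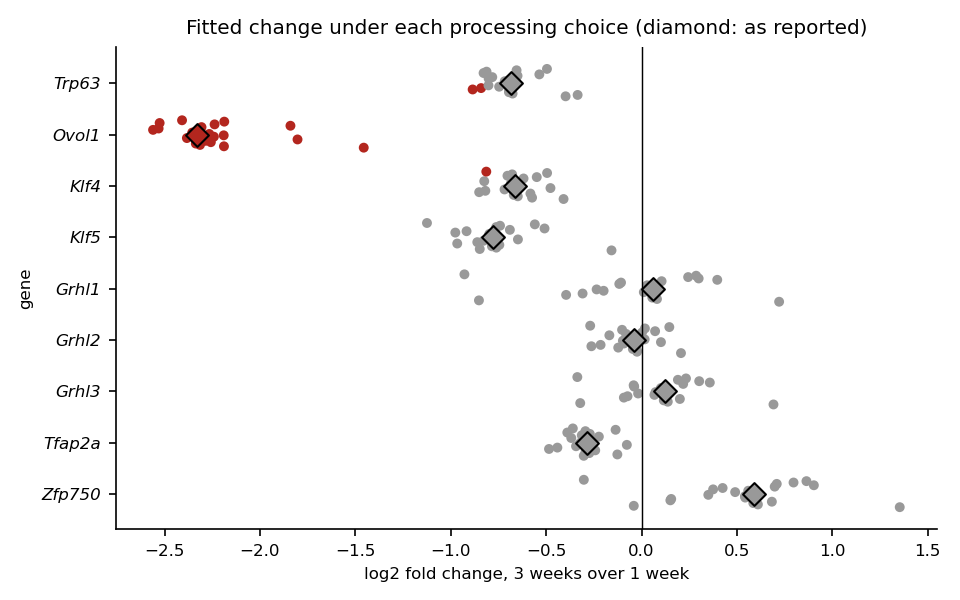
Log2 fold change of each of the 9 genes, 3 weeks over 1 week, as reported (diamonds) and under each alternative fit (points), in red where the adjusted p is under 0.05. Ovol1 is red throughout, Trp63 on RPKM values only and Klf4 only without 3-week replicate 4, and the points of Grhl1, Grhl2, Grhl3 and Zfp750 lie on both sides of 0.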

How the data were processed

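Poly(A) RNA of KCs from both culture times was sequenced and, per the study's methods, aligned to GRCm38 in the CLC Genomics Workbench. The authors deposited 1 gene table per sample, whose count columns hold whole reads (total and unique exon reads, reads on the gene, on introns and on junctions) without normalization. The deposited RPKM values, written with decimal commas, were read as numbers, and other normalized columns were not used.

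Total exon reads of all 8 samples were filtered by filterByExpr, scaled by TMM and tested in 1 unpaired fit with edgeR 4.0.16 (glmQLFit, glmQLFTest) in R 4.3.3, and called at a Benjamini-Hochberg adjusted p under 0.05. Intronic reads were tested likewise, and ratios by exact permutation (scipy 1.17.1). Alternatives were DESeq2 1.42.0, limma 3.58.1 on RPKM values, other read columns, filters and scalings, blocks, and the omission of samples. The omission of a pair of libraries and the exon-length offset were chosen after seeing the data. Simulated counts for 12455 genes at this depth, with known changes in 200, were tested in the same way, and 90% of the 4-fold and 39% of the 2-fold changes were found, beside 2 false calls.

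Groups and replicate numbers were taken from the labels. The members and gene lists were chosen with earlier results of these data known. Besides the members, the text names from each list up to 4 genes that passed the test without overlap and had the largest change, up to 2 of the most abundant that did not pass, and the 3 genes nearest to each member. A pair of genes that this rule names is not reported here. Msx2, Itga6, Bmp7 as a p63 target, Jag1, Dsg1b, Asprv1, Abca12, Casp14, Ovol2 and the markers were named after their values had been seen. Coordinates are those of the deposited tables, and transcripts and the junction sequence are from GENCODE M21 on the same build. Counting intervals cover counting error only.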

Additional observations from a re-analysis of the deposited data

Results flagged for a closer look

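In 5 of the 70 groups of 4 RPKM values examined for the 9 genes and the other genes named by rule, 1 sample lay far from the others by Dixon's test of the gap to the nearest sample (95% level). Chance alone gives this in about 5% of groups. Grhl1 stood at 16.4 RPKM in 3-week replicate 4, beside 2.56 to 3.87 in the other samples of 3 weeks. In the same library Hopx stood at 214 RPKM, beside 14.5 to 31.3, and Pou3f1 at 0.23, beside 0.079 to 0.0949. Tfap2e stood at 1.28 RPKM in 1-week replicate 4, beside 0.368 to 0.479, and at 0.0515 in 3-week replicate 1, the only library of 3 weeks in which it was not at 0.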

How the results depend on the processing

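Ovol1 kept its direction and its side of the threshold in every fit tried. With one replicate left out, its log2 fold change was between -2.56 and -1.84. The number of members that fell was 1 or 2 with one replicate left out, the second being Klf4 without 3-week replicate 4 (-0.82 to -0.50 over these fits), and 2 with limma on log2(RPKM + 0.1) or log2(RPKM + 1), the second being Trp63 (-0.89 and -0.84). The signs of 4 members changed: with one replicate left out, Grhl1 was between -0.93 and 0.40, Grhl2 between -0.27 and 0.15, Grhl3 between -0.34 and 0.36 and Zfp750 between -0.30 and 0.90. In limma Grhl1 was at -0.40 and -0.31 and Grhl3 at -0.093 and -0.074, and with total gene reads Grhl2 was at 0.016. Without 3-week replicates 3 and 4, Grhl1 was at -0.85, Grhl3 at -0.32 and Zfp750 at -0.041, and without 1-week replicates 3 and 4 Grhl2 was at 0.21.

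The deviations of same-numbered replicates from their time point correlated with r from -0.23 to 0.25. Those of the 3 shared preparations had the same range, beside -0.285 to 0.416 for samples of different preparation numbers. With 4 samples a group these values cannot decide whether samples are paired. Fits with blocks are therefore given beside the unpaired one. With the replicate block 1309 genes rose and 1558 fell, Ovol1 was at -2.19 (adjusted p = 0.0119) and Grhl1 at -0.24. The preparation numbers in the names of the tables were also used as a block, which keeps only the preparations present at both times. There 1316 genes rose and 1793 fell, and Grhl1, Grhl2 and Grhl3 were at -0.20, 0.10 and -0.018. Over all genes 1313 and 1281 rose in limma and 953 without 1-week replicates 3 and 4, instead of 1981. With limma 3089 and 3090 fell, so that its share of higher calls is smaller, on values without TMM scaling. With the exon-length offset 2342 rose.

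In the 5 lists together 10 genes instead of 6 rose with DESeq2 and without 3-week replicates 3 and 4, and 8 instead of 18 fell without 1-week replicates 3 and 4. With one replicate left out, between 11 and 27 fell. Falls among the genes of terminal differentiation numbered from 2 to 15 over all fits. Of the other called genes, Msx2, Jag1, Dsg1b and Tfap2c each lost the call in 11 of 21 fits, Bmp7 in 10, Itga6 in 9, Fgfr3 in 6, Gata3 and Abca12 in 4 each, Asprv1 in 3, and Tfap2b, Myc and Itgb1 in 1 each. In 20 fits Dsg1a lost it in 3 and Krt1 in 1. Among genes that did not pass, Klf6 was at 0.080, Hopx at -0.42, Sfn at 0.16 and Ppp1r13l at 0.014 without 3-week replicates 3 and 4. Sfn, Dmkn, Sbsn and Ppp1r13l were at 0.094, 0.22, 0.22 and 0.17 without 1-week replicates 3 and 4, and Ppp1r13l at 0.048 with the exon-length offset and 0.073 with the preparation block. With one replicate left out, Klf6 was between -0.22 and 0.069, Hopx between -0.28 and 1.70, Sfn between -0.28 and 0.10 and Ppp1r13l between -0.24 and 0.16.

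For intronic reads, scaling like the exon reads called 819 genes instead of 352, with Grhl2 at 1.53 and Tfap2a at 0.13, and leaving out one replicate called 170 to 461. With one replicate left out, the difference of the Grhl1 to Grhl2 ratio changed sign (-0.51 to 0.18), and that of Zfp750 to Trp63 lay between 0.24 and 1.40. The cause of these shifts was not tested. With 4 samples a group, most 2-fold changes were missed in the simulated counts, where far fewer genes changed than were called in the data.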
